A study of Mus musculus with 6 samples.

Results

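The long noncoding RNAs (lncRNAs) of the newborn mouse hippocampus were compared between *Mov10* Deletion and WT pups. The genes were chosen by their measured level, as the mean over all 6 libraries, and not by the difference between genotypes. A gene was a member if the GENCODE annotation calls it a lncRNA, it lies on an autosome, and its mean was at least 5 CPM (read counts scaled to the same library total). The imprinted lncRNAs *Meg3*, *Rian*, *Mirg*, *H19*, *Peg13* and *Kcnq1ot1* were left out by name. This gave 227 genes of the 9376 autosomal lncRNA genes listed in the files, of which 5706 had any count. The genes nearest the limit were *Gm6145* (4.93 CPM), *Gm37233* (4.96 CPM) and *Phtf1os* (4.98 CPM) outside it, and *Gm49327* (5.01 CPM), *D430040D24Rik* (5.03 CPM) and *2810032G03Rik* (5.13 CPM) inside it.

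The libraries came from hippocampi at postnatal day 0, 3 from *Mov10* Deletion and 3 from WT mice, and each sample held tissue of at least 2 pups. MOV10 is an RNA helicase that acts beside AGO2 in microRNA (miRNA) silencing. *Mov10* Deletion mice carried a floxed *Mov10* allele removed by Cre under the *Emx1* promoter, a driver of the excitatory lineage in neocortex and hippocampus. They also carried a germline mutant *Mov10* allele. Cells outside that lineage were not recombined, but they carried the germline mutant allele too. WT mice were C57BL/6, and the floxed allele was made in C57BL/6 embryonic stem cells. Poly(A) RNA was sequenced, so lncRNAs without a poly(A) tail are poorly seen, and mature miRNAs and small nucleolar RNAs (snoRNAs) were not measured at all. The sources do not say that pups of different samples came from different litters, so the p-values measure the spread between these samples.

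An lncRNA is a transcript that is not known to code for a protein. Some, such as *Malat1*, *Neat1* and *Miat*, stay in the nucleus. Others work in the cytoplasm, such as *Norad*, which binds Pumilio proteins. Many are kept for what lies inside them: snoRNAs, which guide chemical changes of ribosomal RNA, are cut from the introns of host genes, and many miRNAs are cut from lncRNA transcripts. Others lie antisense to a coding gene or share its promoter region, and some are known to act on that neighbour.

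Among the hosts that the results turn on, 3 carry genes for the same neural miRNA. *Mir9-2hg*, *Mir9-3hg* and *Gm3764* each hold a copy of the gene for miR-9. *Lncppara* holds the genes of let-7b and let-7c, and *Mir100hg* holds those of let-7a, miR-100 and miR-125b. The sequences are shown because hosts of the same miRNA, or of miRNAs with the same seed, gave different calls. They are RefSeq mature sequences (tables of build GRCm38.p6, where let-7a is listed under another let-7a gene), with the seed, bases 2 to 8, in capitals.
miR-9-5p: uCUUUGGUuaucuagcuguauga
let-7b-5p: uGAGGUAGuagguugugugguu
let-7c-5p: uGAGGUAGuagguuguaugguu
let-7a-5p: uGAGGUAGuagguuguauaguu
The let-7 sequences share their seed, so *Lncppara* and *Mir100hg* host miRNAs of the same family. The gene with the largest rise, *A230057D06Rik*, holds a cluster of miR-344 genes. Its 3p sequences fall into groups by seed, miR-344 with miR-344c and miR-344d with miR-344e, while miR-344b and miR-344h each have their own.
miR-344-3p: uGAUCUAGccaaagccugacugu
miR-344c-3p: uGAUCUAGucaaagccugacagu
miR-344d-3p: gAUAUAACcacugccagacuga
miR-344e-3p: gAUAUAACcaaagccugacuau
miR-344b-3p: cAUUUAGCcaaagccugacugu
miR-344h-3p: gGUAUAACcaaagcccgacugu

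Total estimated counts were 71400300 to 86207971 per library. The *Mov10* level checks the labels: it was 2.45, 2.13 and 2.09 CPM in *Mov10* Deletion and 4.81, 4.75 and 4.80 CPM in WT (log2 fold change -1.11 ± 0.10 SE, limma adjusted p = 0.00132). Counts cover the whole gene, deleted exons and the rest. The members took 0.751, 0.771 and 0.847% of all counts in the *Mov10* Deletion libraries and 0.734, 0.721 and 0.746% in the WT libraries. *Mov10* Deletion replicate 3 held the highest level of 75 of the 227 members, WT replicate 3 of 58 and each other library of 18 to 28. The lowest level was in *Mov10* Deletion replicate 1 for 76 members and in WT replicate 3 for 63. The share of all counts on transcripts annotated as retaining an intron moved with genotype too, at 2.90, 2.84 and 3.29% in *Mov10* Deletion and 2.65, 2.47 and 2.44% in WT. Its part in the lncRNA results was not tested.

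Levels of some cell type markers differed as well. The summed level of 14 excitatory neuron markers was 3761 to 3925 CPM in *Mov10* Deletion and 3465 to 3548 CPM in WT, with 2 markers called higher and 0 lower and a median log2 fold change of 0.02. The 12 progenitor and cycling markers summed to 891 to 990 CPM in *Mov10* Deletion and 1007 to 1037 CPM in WT, with 7 called lower and 1 higher. The 12 astrocyte markers summed to 1765 to 1853 CPM and 1538 to 1726 CPM, with 4 called higher and 1 lower. The 7 tested markers listed for thalamus and neighbouring tissue, of which *Lhx2* and *Meis2* are also expressed in hippocampus, summed to 609.5 to 642 CPM and 682 to 726 CPM, with 1 called higher and 1 lower. Choroid plexus and meningeal markers summed to 40.6 to 188 CPM in *Mov10* Deletion and 68.4 to 73.0 CPM in WT. The 6 tested erythroid markers summed to 213 to 295 CPM and 247 to 309 CPM, with 3 called lower and 0 higher. The sums overlapped for interneuron (507 to 593 against 525 to 559 CPM) and oligodendrocyte markers (196 to 226 against 169 to 221 CPM). They also overlapped for microglia (66.8 to 92.0 against 71.0 to 91.6 CPM) and for endothelial and pericyte markers (343 to 397 against 345 to 361 CPM). In that order, 2, 1, 0 and 2 of these markers were called higher and 1, 1, 0 and 2 lower. Of all genes tested, 12.2% were called higher and 11.7% lower. No marker listed was at 0 in all libraries. In bulk tissue, more cells of a type and more RNA per cell cannot be told apart, and the part of cell makeup in the values that follow was not tested.

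Of the 227 lncRNAs, all of which passed the filter on low counts, 47 were higher and 19 lower in *Mov10* Deletion at an adjusted p under 0.05 over the 16745 genes tested with limma-trend. Values are CPM after TMM scaling, which corrects for differences in RNA composition, and SE is the standard error of a log2 fold change. Another 18 fits changed the normalization, filter, tool or covariates or left out 1 library. That is 29.1% called, beside 23.8% of all genes tested. Called higher were 20.7% of the lncRNAs, beside 12.2% of all genes, and called lower were 8.37%, beside 11.7%. Among coding genes at or over the same 5 CPM limit, 12.7% were higher and 15.5% lower. The changes were small: the median fold among the 66 called lncRNAs was 1.29 in either direction, and 0 changed by more than 1 on the log2 scale. The median log2 fold change over all 227 was 0.02, beside 0.01 over all genes tested.

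In 88 of the 227 lncRNAs (38.8%) the CPM values of the genotypes did not overlap, beside 41.6% of all genes tested. Of the 66 called, 55 did not overlap. The call and the separation come from the same values, so this count is no separate support for the calls. The fit holds 2 factors of unwanted variation, estimated from differences between libraries of the same genotype. Without them, 56 lncRNAs (24.7%) were called, beside 21.0% of all genes, and 54 of the 66 kept their call. The count of lower calls changed when 1 library was left out: without *Mov10* Deletion replicate 2 it was 32, and without WT replicate 1 it was 30. Higher calls rose to 61 and 63 in those fits. Fits without 1 library kept the 2 factors on fewer libraries. In such fits, the effect of the library left out and that of the smaller fit cannot be told apart. With TPM, which scale counts by transcript length, in place of CPM, 26 lncRNAs were called higher and 22 lower. That fit changed unit, scaling and offset together. By level, 21 of 98 lncRNAs at 5 to under 10 CPM were called (21.4%), 34 of 101 at 10 to under 50 CPM (33.7%) and 11 of 28 from 50 CPM up (39.3%). The shares of coding genes called at these levels were 22.7, 25.5 and 32.7%, and the difference between levels was not tested.

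**Figure D1:**
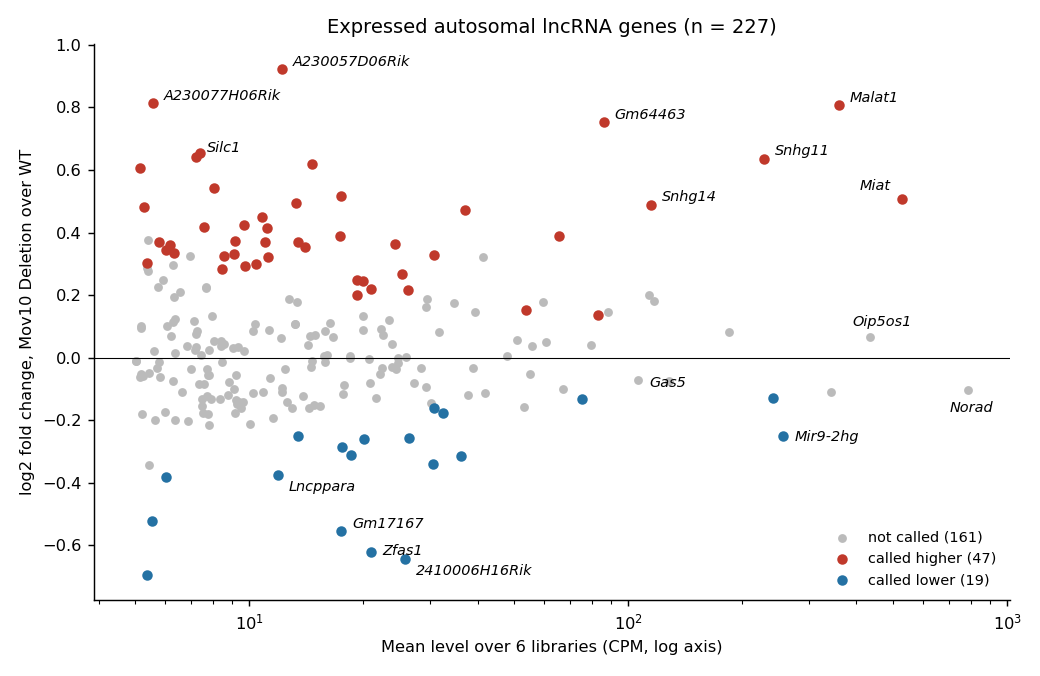
Each point is 1 of the 227 lncRNA genes, with its mean level over 6 libraries in CPM on a log axis (x) and its log2 fold change between the genotypes (y, above 0 where *Mov10* Deletion is higher). Red points are the 47 called higher, blue the 19 called lower and grey the 161 not called. *Malat1*, *Miat* and *Snhg11* were called higher at levels over 100 CPM, where *Norad*, *Oip5os1* and *Gas5* were not called.

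Among the lncRNAs of nuclear architecture, 5 of the 10 genes listed were members, and 2 of them rose (40%, beside 12.2% of all genes called higher). *Miat*, a nuclear lncRNA of neurons also known as Gomafu, was at 531, 588 and 762 CPM in *Mov10* Deletion and 469, 407 and 433 CPM in WT. The groups did not overlap (log2 fold change 0.51 ± 0.11 SE, limma adjusted p = 0.0167), and the change was 0.35 without *Mov10* Deletion replicate 3. *Malat1*, the speckle-associated lncRNA, was at 249, 439 and 611 CPM in *Mov10* Deletion and 200.4, 257 and 419 CPM in WT. Its groups overlapped widely. It was called with the factors in the fit (0.81 ± 0.15, limma adjusted p = 0.00936), not without them (adjusted p = 0.24), and in 11 of the 18 alternative fits (adjusted p 4.79e-10 to 0.415). *Neat1*, the scaffold of paraspeckles, was at 6.58, 4.92 and 7.41 CPM against 5.03, 4.76 and 3.85 CPM and was not called (0.38 ± 0.15, adjusted p = 0.105). It was called in 5 of the 18 alternative fits, among them those without *Mov10* Deletion replicate 1 (0.35), *Mov10* Deletion replicate 2 (0.55), WT replicate 1 (0.54) and WT replicate 3 (0.33). *Pvt1*, beside *Myc*, had a log2 fold change of 0.33 ± 0.13 and was not called either (adjusted p = 0.108). It was called without *Mov10* Deletion replicate 1 (0.28), *Mov10* Deletion replicate 3 (0.48) or WT replicate 3 (0.34), and with the filter at 1 CPM (0.37).

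The list of cytoplasmic regulators held 9 names, not all of them separate genes. Of these names 4 matched members, and 0 of the members were called, beside 23.8% of all genes. *Norad*, the lncRNA with the highest CPM, was at 746, 795 and 744 CPM in *Mov10* Deletion and 807, 827 and 841 CPM in WT. All 3 *Mov10* Deletion values lay under the lowest WT value, but the change did not pass the test (-0.10 ± 0.04, adjusted p = 0.102). *Norad* was called lower without *Mov10* Deletion replicate 1 (-0.09), *Mov10* Deletion replicate 2 (-0.14), WT replicate 1 (-0.13) or WT replicate 3 (-0.10), and by DESeq2 without the factors (-0.12). *Gas5*, a snoRNA host that also binds the glucocorticoid receptor, was at 104, 99.4 and 108 CPM against 111, 104 and 114 CPM (adjusted p = 0.336). On TPM, *Gas5* was called lower (-0.25). *Oip5os1*, the mouse Cyrano RNA that triggers decay of miR-7, was at 466, 459 and 425 CPM against 431, 427 and 419.8 CPM (adjusted p = 0.292), and was called higher without *Mov10* Deletion replicate 3 (0.11).

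**Figure D2:**
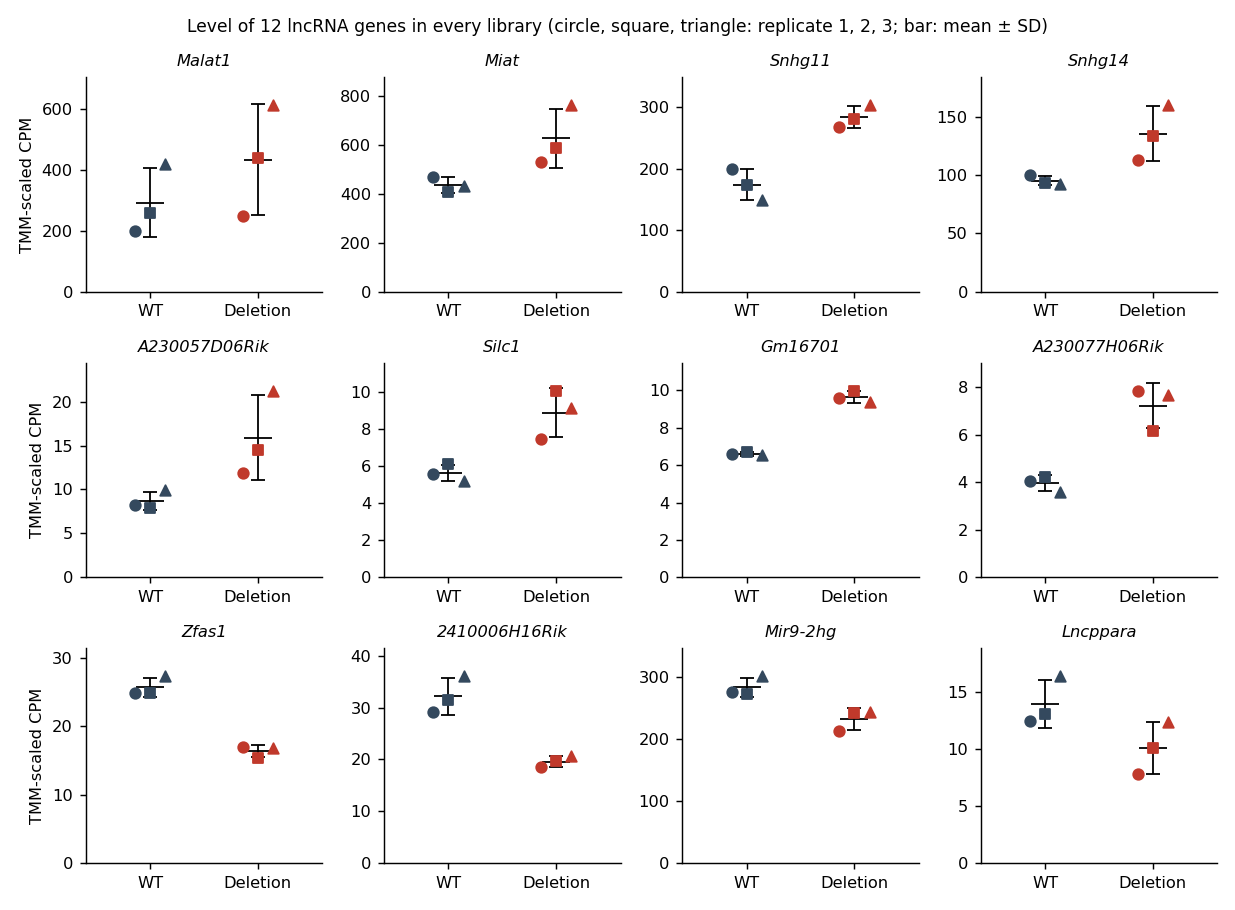
TMM-scaled CPM (y) of 12 lncRNA genes in the 3 WT and the 3 *Mov10* Deletion libraries. Circle, square and triangle are replicates 1, 2 and 3, and the bars are mean ± SD. The genotypes are apart in 11 of the 12 genes and overlap in *Malat1*.

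The snoRNA hosts moved in both directions. Of 20 members that hold an annotated snoRNA gene, 5 rose, 4 fell and 11 were not called, beside 12.2% higher and 11.7% lower of all genes. *2410006H16Rik*, antisense to *Lrrc75a* and host of 3 snoRNA genes, was at 18.5, 19.6 and 20.7 CPM in *Mov10* Deletion and 29.1, 31.4 and 36.1 CPM in WT (log2 fold change -0.64 ± 0.05 SE, limma adjusted p = 0.0013). *Zfas1*, which lies antisense to *Znfx1* and also holds 3 snoRNA genes, was at 16.98, 15.4 and 16.9 CPM against 25.0, 24.9 and 27.4 CPM (-0.62 ± 0.06, adjusted p = 0.0013). Both were lower in every *Mov10* Deletion library, and both kept their call in all 18 alternative fits. *Epb41l4aos* (5.03, 5.32 and 5.24 against 6.73, 6.62 and 7.56 CPM) and *1110038B12Rik* (24.8, 22.8 and 24.3 against 28.3, 28.3 and 30.8 CPM) fell as well, by 0.38 and 0.26 on the log2 scale. *Znfx1* itself was not called (0.13 ± 0.05, adjusted p = 0.099), nor was *Lrrc75a* (-0.05 ± 0.06, adjusted p = 0.552).

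*Snhg11*, a neuronal snoRNA host, rose most among the hosts. It was at 268, 280.4 and 303 CPM in *Mov10* Deletion and 199, 174 and 148 CPM in WT, a log2 fold change of 0.64 ± 0.05 (adjusted p = 0.0013) that was 0.57 without *Mov10* Deletion replicate 3. Its neighbour on the opposite strand, *Snhg17*, was at 27.8, 25.3 and 29.9 CPM against 23.6, 21.5 and 24.7 CPM (0.27 ± 0.08, adjusted p = 0.0442). The genes lie on chromosome 2 (GRCm39), *Snhg11* at 158217558 to 158228071 and *Snhg17* at 158195620 to 158204194. Both groups of values were apart, while the nearest coding gene, *Ralgapb*, was not called (-0.03 ± 0.03, adjusted p = 0.553). *Snhg4* and *Snhg20* rose by 0.30 and 0.28 on the log2 scale. Leaving out WT replicate 2 ended the calls of *Snhg17* (0.21) and *Snhg4* (0.27), and leaving out *Mov10* Deletion replicate 3 that of *Snhg20* (0.21). A score of Y-linked genes in place of the factors ended all 3 calls. *Snhg20* was also lost without the factors (limma adjusted p = 0.0505), with a replicate block or without the filter on low counts. *Snhg17* was also lost on TPM or with the filter at 1 CPM. In contrast, *Snhg1*, the host of 8 snoRNA genes, was at 24.0, 28.4 and 24.8 CPM against 25.1, 26.1 and 27.9 CPM (adjusted p = 0.993). *Snhg5* (27.8, 28.7 and 26.7 against 27.9, 30.0 and 36.1 CPM, adjusted p = 0.236) and *AI506816* (36.1, 30.8 and 32.0 against 31.4, 30.6 and 29.7 CPM, adjusted p = 0.198) were not called, though *Snhg5* was called lower without WT replicate 1 (-0.25) or on TPM (-0.21).

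The fifth host that rose, *Snhg14*, begins upstream at *Snrpn* and runs toward *Ube3a* on the opposite strand in the Prader-Willi and Angelman region. It is known to be expressed from the paternal copy, to hold the SNORD115 and SNORD116 clusters and, in neurons, to silence paternal *Ube3a* by its far end. The annotation places 208 snoRNA genes in it (chromosome 7, 58957672 to 59628040, minus strand, GRCm39). *Snhg14* was at 113, 134 and 160.1 CPM in *Mov10* Deletion and 99.9, 93.7 and 92.6 CPM in WT (log2 fold change 0.49 ± 0.08 SE, limma adjusted p = 0.00789, and 0.36 without *Mov10* Deletion replicate 3). The groups did not overlap, and the call held in all 18 alternative fits. *Ube3a*, the ubiquitin ligase gene lost in Angelman syndrome, was at 186, 173 and 176 CPM against 209, 189.6 and 191 CPM (-0.17 ± 0.04, adjusted p = 0.0266), and lost its call without the factors (adjusted p = 0.0749, range over the alternative fits 0.00326 to 0.119).

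All 4 members of this region rose, beside 12.2% of all genes called higher. These 4 are grouped here after their values were seen, so their count is no test of the region. *A230057D06Rik*, host of the miR-344 cluster, was at 11.9, 14.5 and 21.2 CPM in *Mov10* Deletion and 8.20, 7.93 and 9.89 CPM in WT, the largest log2 fold change of any called member (0.92 ± 0.16, adjusted p = 0.00749, and 0.70 without *Mov10* Deletion replicate 3). *Gm9801* was at 6.66, 9.23 and 11.0 CPM against 5.46, 5.70 and 6.68 CPM (0.65 ± 0.11, adjusted p = 0.00723), with 1 *Mov10* Deletion library inside the WT range. *B230209E15Rik* was at 5.51, 6.57 and 6.02 CPM against 5.16, 4.71 and 4.40 CPM (0.30 ± 0.08, adjusted p = 0.0342). It kept its call in 12 of the 18 alternative fits (adjusted p 0.0135 to 0.122) and lost it without *Mov10* Deletion replicate 2 (0.24) and without WT replicate 2 (0.29). In these genes *Mov10* Deletion replicate 3 was highest except in *B230209E15Rik*. All 4 are on the minus strand, and the last 3 lie between *Snrpn* and *Ndn*. Of the coding genes there, *Snrpn* was at 258, 277 and 254 CPM against 267, 265 and 253 CPM (adjusted p = 0.916), and *Ndn* at 275, 305 and 278 CPM against 275, 264 and 243 CPM (adjusted p = 0.108).

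The region holds 8 further tested lncRNAs or transcripts to be experimentally checked, each under the limit of 5 CPM or of another gene type. Of these, 3 were called higher, 0 lower and 5 were not called (log2 fold change -0.27 to 0.55). Of all genes, 12.2% were called higher and 11.7% lower. The lncRNA *A330076H08Rik*, next to *A230057D06Rik*, was at 4.10, 6.25 and 6.68 CPM in *Mov10* Deletion and 2.63, 2.69 and 3.24 CPM in WT (1.05 ± 0.10, adjusted p = 0.00166). *9330162G02Rik*, annotated as a transcript to be experimentally checked and antisense to *Ube3a*, was at 6.53, 8.10 and 11.3 CPM against 4.33, 4.42 and 5.32 CPM (0.93 ± 0.15, adjusted p = 0.00581). *Gm44560*, also antisense to *Ube3a*, was near 1 CPM and was the other one called (1.64, adjusted p = 0.00499). The libraries were made with a stranded kit, but whether the counting used strand is not stated. If strand was not used, reads of *Ube3a* and of its antisense RNAs cannot be told apart where they overlap. The same limit holds for the other lncRNAs antisense to a coding gene.

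Within *Snhg14*, the transcripts differed in their values along the gene. The 2 transcripts that end near the start of the gene summed to 59.2, 60.7 and 68.2 CPM in *Mov10* Deletion and 65.4, 58.4 and 51.3 CPM in WT, and overlapped. The 8 transcripts that end farther toward *Ube3a* summed to 54.2, 69.3 and 89.9 CPM in *Mov10* Deletion and 33.9, 34.1 and 38.4 CPM in WT, a ratio of means of 2.01, beside 1.07 for the others. The transcripts that end closest to *Ube3a* had the highest ratios: *Snhg14-208* was at 17.4, 22.9 and 29.8 CPM against 9.36, 9.18 and 11.8 CPM, and *Snhg14-210* at 14.6, 18.3 and 24.2 CPM against 7.35, 8.20 and 9.39 CPM. Transcript values are estimates that share reads within the gene, this split was made after the values were seen, and it was not tested.

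**Figure D3:**
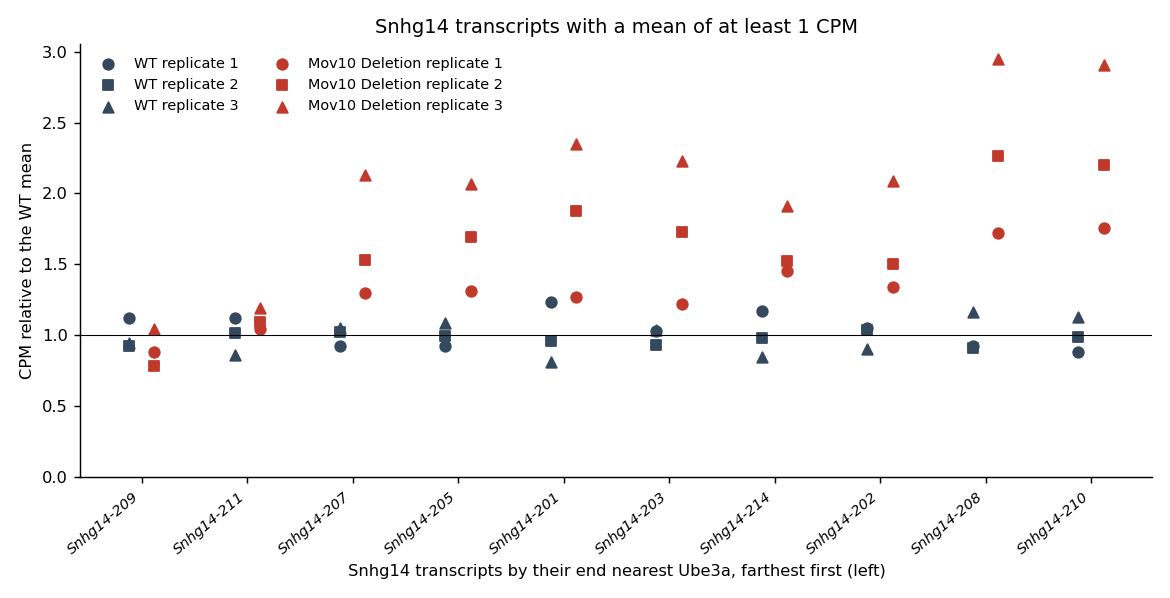
CPM of the 10 *Snhg14* transcripts averaging 1 CPM or more, divided by the WT mean (y), in each library. Transcripts are ordered by their end nearest *Ube3a*, farthest on the left. In the leftmost 2 the genotypes overlap. In the other 8 every *Mov10* Deletion library is above every WT library, and replicate 3 is highest.

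Of 20 members that hold miRNA genes, 5 rose, 2 fell and 13 were not called, beside 12.2% higher and 11.7% lower of all genes. Without the factors 4 of the 20 were called. *Mir9-2hg*, with the highest CPM of the hosts of miR-9, was at 213, 243 and 244 CPM in *Mov10* Deletion and 276, 273 and 302 CPM in WT (log2 fold change -0.25 ± 0.04 SE, limma adjusted p = 0.0043), and kept its call in all 18 alternative fits. The groups did not overlap. *Mir9-3hg* was at 47.5, 55.6 and 59.6 CPM against 49.2, 53.8 and 70.3 CPM (0.04 ± 0.05, adjusted p = 0.605). *Gm3764*, host of the *Mir9-1* gene, was at 101, 112 and 151 CPM against 107, 102 and 112 CPM (0.20 ± 0.11, adjusted p = 0.237). Its log2 fold change was 0.03 without *Mov10* Deletion replicate 3, whereas it was called higher without *Mov10* Deletion replicate 1 (0.31), *Mov10* Deletion replicate 2 (0.28), WT replicate 1 (0.21) or WT replicate 3 (0.20). The difference between the hosts of miR-9 was not tested. *AW047730*, just upstream of *Gm3764* on the same strand of chromosome 3, fell by 0.34 on the log2 scale (24.9, 26.3 and 28.9 against 33.0, 34.4 and 36.6 CPM, adjusted p = 0.00623).

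*Lncppara*, the let-7b and let-7c host, was at 7.79, 10.1 and 12.4 CPM in *Mov10* Deletion and 12.4, 13.0 and 16.3 CPM in WT, with the highest *Mov10* Deletion library just under the lowest WT library (-0.37 ± 0.10, adjusted p = 0.0372). It lost its call without the factors (adjusted p = 0.0565, range over the alternative fits 0.000101 to 0.135). *Mir100hg*, with let-7a, was at 82.2, 85.05 and 112 CPM against 87.2, 78.2 and 88.7 CPM (0.15 ± 0.11, adjusted p = 0.36), and was called higher without *Mov10* Deletion replicate 1 (0.22), *Mov10* Deletion replicate 2 (0.23), WT replicate 1 (0.18) or WT replicate 3 (0.15). Hosts of the neuronal miR-124 were uneven between libraries: *Mir124a-1hg* was at 71.3, 28.3 and 48.2 CPM against 43.7, 30.2 and 26.3 CPM (0.32 ± 0.16, adjusted p = 0.179), and *Mir124-2hg* at 8.82, 7.37 and 8.81 CPM against 7.82, 8.44 and 7.27 CPM (adjusted p = 0.694). *Mir124a-1hg* was called higher without *Mov10* Deletion replicate 2 (0.65) or WT replicate 1 (0.66). Besides *A230057D06Rik*, the hosts that rose were *AU020206* (0.34), *Snhg4* (0.30), *Snhg20* (0.28) and *Sox1ot* (0.15) on the log2 scale.

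**Figure D4:**
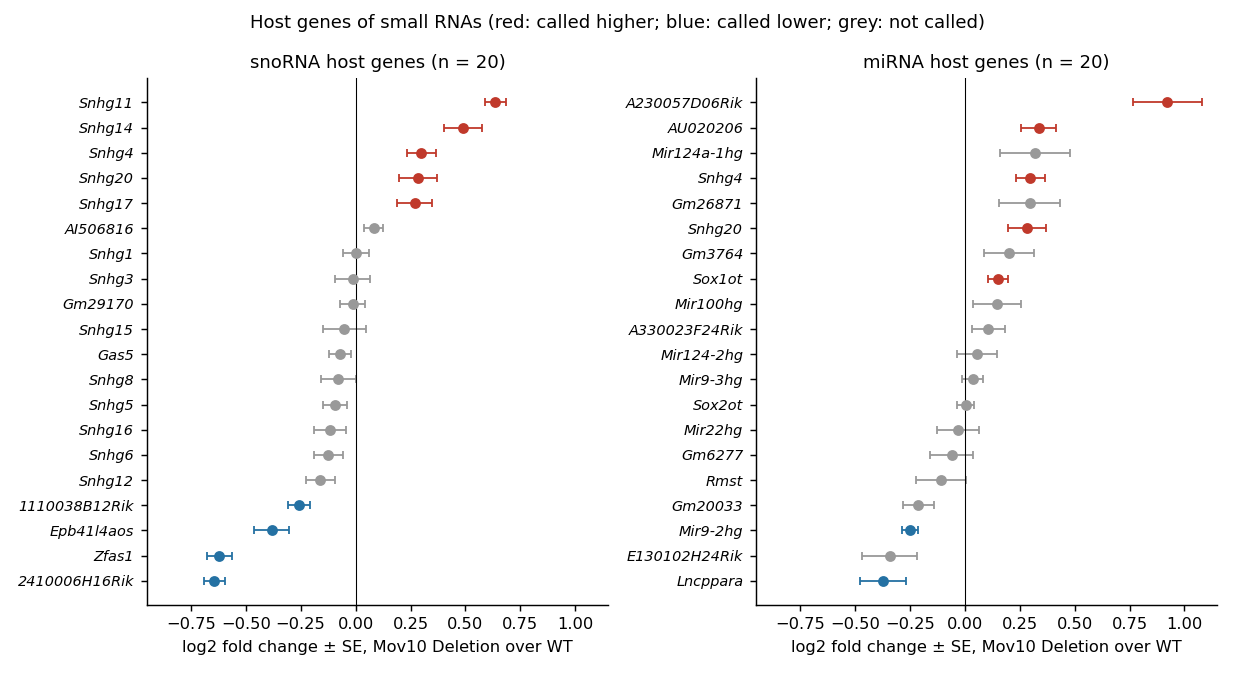
Log2 fold change ± SE between the genotypes (x, above 0 where *Mov10* Deletion is higher) for the 20 snoRNA hosts and the 20 miRNA hosts among the lncRNAs (y), where *Snhg4* and *Snhg20* are in both panels. Red marks genes called higher, blue genes called lower and grey those not called. *Zfas1* and *2410006H16Rik* have the lowest values of the snoRNA hosts and *Snhg11* the highest, and *A230057D06Rik* is highest among the miRNA hosts.

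Of 37 listed names for lncRNAs of neural development, not all of them separate genes, 12 matched members. *Snhg11* and *Sox1ot* rose, *Mir9-2hg* fell and 9 were not called. That is 25% called, near the 23.8% of all genes tested. *Sox1ot*, which spans the progenitor gene *Sox1*, was at 50.7, 59.1 and 60.4 CPM in *Mov10* Deletion and 52.2, 49.6 and 52.8 CPM in WT. The groups overlapped, and the call (0.15 ± 0.04, adjusted p = 0.0433) was lost without the factors (adjusted p = 0.173, range over the alternative fits 0.00257 to 0.215), as it was without *Mov10* Deletion replicate 3 (0.11) or WT replicate 2 (0.13). *Sox1* moved the other way, at 59.9, 68.7 and 69.2 CPM against 75.4, 73.9 and 76.4 CPM (-0.18 ± 0.04, adjusted p = 0.0155). *Sox2ot*, which spans *Sox2*, had a log2 fold change of 0.00 ± 0.04, and *Pantr1*, beside *Pou3f3*, of 0.04 ± 0.05. *Emx2os* was at 20.3, 22.1 and 21.1 CPM against 19.9, 19.003 and 17.98 CPM and did not pass (0.13 ± 0.05, adjusted p = 0.0872), while its antisense partner *Emx2*, a transcription factor of the hippocampal primordium, fell by 0.19 on the log2 scale (adjusted p = 0.0166). The interneuron lncRNAs *Dlx1as* (0.18 ± 0.10, adjusted p = 0.238) and *Dlx6os1* (-0.05 ± 0.06, adjusted p = 0.515) were not called. Without *Mov10* Deletion replicate 1, *Emx2os* (0.16) and *Dlx1as* (0.27) were called higher. *Rmst*, which is known to bind SOX2, was not called at -0.11 ± 0.11 (adjusted p = 0.512).

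Among the other genes that rose with groups apart was *Silc1*, a lncRNA known from regenerating sensory neurons, where it acts on *Sox11*. It was at 7.49, 10.1 and 9.12 CPM in *Mov10* Deletion and 5.55, 6.10 and 5.21 CPM in WT (log2 fold change 0.64 ± 0.09 SE, limma adjusted p = 0.00401), whereas *Sox11* was not called (-0.06 ± 0.06, adjusted p = 0.512). *Gm16701*, antisense to *Fam78b*, was at 9.58, 9.98 and 9.38 CPM against 6.57, 6.72 and 6.53 CPM (0.54 ± 0.07, adjusted p = 0.00332), and *Fam78b* rose with it (0.25 ± 0.05, adjusted p = 0.0102). *A230077H06Rik*, antisense to *Vstm2b*, was at 7.86, 6.15 and 7.69 CPM against 4.06, 4.23 and 3.59 CPM (0.81 ± 0.10, adjusted p = 0.00296). *Vstm2b* had a log2 fold change of 0.18 ± 0.06 (adjusted p = 0.0509). *2810032G03Rik*, antisense to *Klhl29* and close above the 5 CPM limit, was at 6.85, 6.61 and 5.57 CPM against 4.47, 3.82 and 3.60 CPM (0.61 ± 0.11, adjusted p = 0.0079). All 4 lncRNAs kept their call in the 18 alternative fits.

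Among those that fell, *Gm11738*, antisense to *Dnah17*, was at 3.31, 4.57 and 4.69 CPM in *Mov10* Deletion and 5.24, 6.37 and 9.44 CPM in WT (log2 fold change -0.52 ± 0.08 SE, limma adjusted p = 0.00623). *B230354K17Rik*, antisense to *Spats1*, was at 35.5, 30.0 and 32.8 CPM against 41.5, 39.6 and 38.8 CPM (-0.31 ± 0.05, adjusted p = 0.00495). *Gm17167* was at 11.5, 13.0 and 16.2 CPM against 17.7, 21.6 and 25.7 CPM (-0.55 ± 0.10, adjusted p = 0.00811), but 52.6% of its main transcript aligned to *Gm17081*, so its reads may be split between copies. Its coding neighbour *Il11ra3* fell too (-0.75 ± 0.21, adjusted p = 0.0369).

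For 30 of the 227 lncRNAs, at least 50% of the most counted transcript aligned at 95% identity or more to a transcript of another gene, so their levels are uncertain. Of these, 2 were called higher and 5 lower (23.3% called, near the 23.8% of all genes). Per length, the highest lncRNAs were *Gm68527* (mean 1062 TPM) and *Gm70833* (887 TPM), which match the ribosomal protein genes *Rpl12* over 96.5% and *Rpl5* over 99.8% of their length. *Gas5* (614 TPM) and *Norad* (400.2 TPM) came next, then *Gm28037* (357 TPM), which shares exons with *Rpl24*, and *Gm3764* (343 TPM). *Norad* itself was among the 30, with 51.3% aligned to *Gm7292*. Against WT, *Gm68527* was called lower (-0.13 ± 0.04, limma adjusted p = 0.0392) in 9 of 18 alternative fits, and *Gm70833* (-0.11 ± 0.04, adjusted p = 0.0641) and *Gm28037* (-0.10 ± 0.04, adjusted p = 0.0783) were not called. Leaving out WT replicate 2 ended the call of *Gm68527* (-0.12). *Gm70833* was called lower without *Mov10* Deletion replicate 1 (-0.13), *Mov10* Deletion replicate 2 (-0.11) or WT replicate 1 (-0.20), and by DESeq2 without the factors (-0.15). *Gm28037* was called lower without *Mov10* Deletion replicate 2 (-0.12) or WT replicate 1 (-0.16).

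A pair of strong rises belongs here too. *Gm64463* was at 103, 109 and 111 CPM in *Mov10* Deletion and 60.2, 68.7 and 67.3 CPM in WT (0.75 ± 0.05, adjusted p = 0.000788), with 90.3% of its main transcript aligned to *Tmem181a*, which had a log2 fold change of 0.14 ± 0.04 (adjusted p = 0.0431). *Gm29084* was at 18.6, 17.05 and 18.2 CPM against 11.8, 11.7 and 10.7 CPM (0.62 ± 0.06, adjusted p = 0.00149) and aligned over its whole length to *Noct*, which was not called (0.07 ± 0.06, adjusted p = 0.359). How far reads moved between each gene and its copy was not tested.

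By position, 30 of the 99 lncRNAs antisense to a coding gene were called (22 higher, 8 lower), as were 29 of the 96 intergenic ones (19 higher, 10 lower), 4 of the 17 overlapping a coding gene on its own strand (4 higher, 0 lower) and 3 of the 15 that start within 1000 bases of a coding gene's start on the other strand (2 higher, 1 lower). The antisense share was 30.3%, the intergenic 30.2% and the overlapping 23.5%, beside 29.1% of all the lncRNAs and 23.8% of all genes. In 204 pairs of a lncRNA and a tested coding partner, Pearson's r between the log2 fold changes was 0.07 and Spearman's rho 0.03, across genes that are not independent replicates and that share all 6 libraries. It was 0.09 (Pearson) in the 96 antisense pairs and -0.26 in the 15 divergent pairs. Of the 204 partners, 55 were called. Both genes were called in 18 pairs, in the same direction in 7 and in opposite directions in 11. The lncRNA calls were mostly higher (20.7% higher, 8.37% lower). Of coding genes at or over 5 CPM, 12.7% were higher and 15.5% lower. How many such pairs these shares alone would give was not tested.

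*Chaserr* is known to hold back the chromatin remodeller gene *Chd2* beside it. *Chaserr* was at 18.2, 28.4 and 26.0 CPM in *Mov10* Deletion and 23.9, 24.1 and 28.4 CPM in WT (-0.02 ± 0.05, limma adjusted p = 0.807), with groups that overlapped. Without *Mov10* Deletion replicate 1, the library with its lowest value, it was called higher (0.15, adjusted p = 0.0493). *Chd2* was at 112, 110.4 and 125 CPM against 159, 157 and 184 CPM and fell by 0.48 on the log2 scale (adjusted p = 0.00232).

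**Figure D5:**
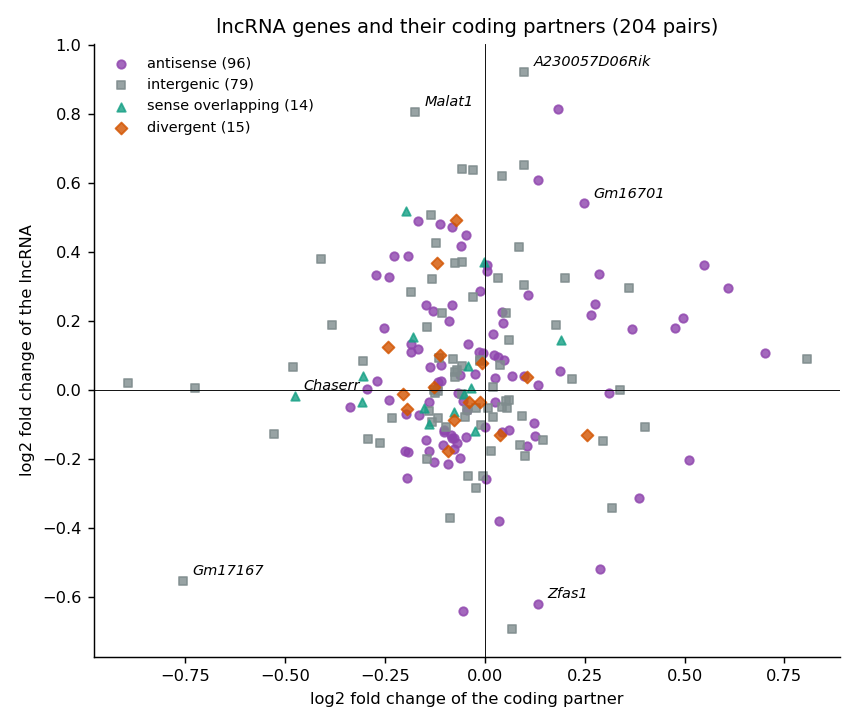
Log2 fold change between the genotypes for the coding partner (x) and the lncRNA (y) in 204 pairs, by position of the lncRNA. The points form no line, with r = 0.07, and *Chaserr* lies near 0 on the y axis while its partner *Chd2* is at -0.48.

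Close to the edited loci, 3 members lay within 5 Mb of *Mov10* and 2 within 5 Mb of *Emx1*. *4933431E20Rik*, on the chromosome of *Mov10*, was the 1 called, at 85.1, 88.9 and 91.5 CPM in *Mov10* Deletion and 82.8, 80.1 and 73.6 CPM in WT (0.14 ± 0.04, limma adjusted p = 0.0399, and adjusted p = 0.0492 without the factors, range over the alternative fits 0.00481 to 0.134). The call was lost without *Mov10* Deletion replicate 3 (0.10) or WT replicate 2 (0.15). The values of the genotypes were apart by a narrow margin.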

How the data were processed

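Poly(A) RNA of newborn hippocampi was sequenced, and the authors quantified transcripts with Salmon 1.4.0 against GRCm39. The deposited files hold estimated counts and TPM per transcript, besides lengths, with no annotation release stated in the sources. Counts were summed per gene with GENCODE M39 (137570 of 139225 transcripts matched, and the others held 0.589 to 0.600% of counts). Of 904 member transcripts 443, with 40.1% of the members' counts, had the length the files give, so alignments between transcripts (blastn) and positions are approximate. Genes with at least 0.25 CPM in 3 libraries were tested with limma-trend (limma 3.58.1) on TMM-scaled log2 CPM (prior count 2) with 2 factors of unwanted variation and Benjamini-Hochberg adjustment over 16745 genes. The study's methods name RUVSeq and not its function, and RUVs was written anew here. After the factors, 2 residual degrees of freedom remain, and fewer where 1 library was left out. The fit was tested on simulated data. edgeR 4.0.16 and DESeq2 1.42.0 were alternatives, with counts rounded for DESeq2. Depth was 71400300 to 86207971 counts per library.

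The members, lists and tests were chosen with earlier results of these data known. Genes named were called members with groups apart (8 at each end of the log2 fold change), the 6 with the highest mean TPM, members of the role lists, host genes (values for 8 of each kind by level), called members near *Mov10* or *Emx1*, their coding partners and genes at the 5 CPM limit. Genes of the Prader-Willi region and other host genes were added after their values were seen.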

Additional observations from a re-analysis of the deposited data

How the results depend on the processing

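Of the 66 lncRNAs called, 26 kept their call and direction in all 18 alternative fits and 48 in at least 15. The 47 higher and 19 lower calls became 25 and 9 with a score of Y-linked genes in place of the factors, and 26 were higher on log2(TPM + 0.1). The mix of sexes differed between samples, and the fit with the score also lacked the factors. The part of sex alone was not tested. With the limit for members at 2 CPM 85 of 463 lncRNAs were higher, and at 10 CPM 29 of 129. Leaving out 1 library at a time gave 38 to 68 higher and 15 to 32 lower calls (32 without *Mov10* Deletion replicate 2 and 30 without WT replicate 1), and a median log2 fold change of -0.01 to 0.04. The median was below 0 only without *Mov10* Deletion replicate 3. The cause of these differences was not tested. Apart from the fit without factors, the shares of all genes called in these fits are not given here. Changes particular to the lncRNAs can therefore not be told from changes in all calls. Without the 30 lncRNAs alike to other genes, an alternative chosen after seeing the data, 45 were higher and 14 lower of 197.

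Replicate numbers did not pair the samples (correlations of same-numbered deviations 0.01, -0.07 and 0.04). A fit with the replicate block and no factors called 43 higher and 17 lower. Of the 66 called lncRNAs, 32 lost their call with the Y-linked score, 24 on TPM, 20 without the filter on low counts, 14 without WT replicate 2, 12 without factors and 0 to 12 in each of the other 13 fits, and 0 changed direction in any fit. The lowest estimated count of a member in any library was 261.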

Other observations

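Among 1191 tested autosomal lncRNAs under the limit of 5 CPM, 92 were called higher (7.72%) and 20 lower (1.68%) in *Mov10* Deletion. Of all genes tested, whatever their level, 12.2% were called higher and 11.7% lower. The sets were not matched by level, and its part in these shares was not tested. Both shares were smaller in these lncRNAs. Their median log2 fold change was 0.11, beside 0.01 over all genes tested. Values of the expressed lncRNAs varied more between libraries of a genotype than those of coding genes over the same lower limit. The median coefficient of variation was 7.44% in *Mov10* Deletion and 6.88% in WT for the lncRNAs, beside 4.52% and 4.12% for 11480 coding genes. The sets were not matched by level: 98 of the 227 lncRNAs, but 1325 of the 11480 coding genes, were at 5 to under 10 CPM. The part of level in this difference was not tested. *Gm44560*, a low transcript antisense to *Ube3a*, was at 0.91, 1.30 and 2.04 CPM in *Mov10* Deletion and 0.41, 0.41 and 0.59 CPM in WT.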
